A study of Sus scrofa with 9 samples.

Results

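The drug-metabolizing cytochrome P450 system of the pig liver was followed through 10 genes, out of 25918 genes in the deposited table. They were chosen by name and comprise 7 P450 enzymes (CYP1A1, CYP1A2, CYP2A19, CYP2C33, CYP2C49, CYP2E1 and CYP3A29), the reductase that feeds them electrons (POR), and 2 nuclear receptors that control such enzymes (NR1I2 and NR1I3). The liver RNA came from Wujin pigs, a plateau breed of Southwest China, that entered the trial at an age of 35 days, were prefed for 5 days and then ate the test diets for 30 days. All groups ate the same basal diet, which by the paper's calculation contained iron of its own, so the low-iron diet was not free of iron. The low-iron group received 0 mg/kg of added iron, the control group 100 mg/kg and the high-iron group 200 mg/kg, given as iron glycinate. Each group was represented by 3 libraries, named here by group and by the number in their label. The methods describe 1 pig per replicate and pigs of both sexes, and the labels do not give the sex.

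P450 enzymes hold their iron in a haem group, which binds oxygen and inserts 1 of its atoms into the substrate. In liver they sit in the endoplasmic reticulum, chiefly in hepatocytes near the central vein, and oxidise drugs, toxins, steroids and fatty acids. POR passes electrons from NADPH to them. NR1I2 (the pregnane X receptor) and NR1I3 (the constitutive androstane receptor) sense foreign compounds and switch on genes of the CYP2B, CYP2C and CYP3A subfamilies, and the aryl hydrocarbon receptor does so for CYP1A genes. The comparison of diets asks whether the RNA of this iron-dependent system differed with the dietary iron level.

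The site at which the haem is held is written in the genes themselves. The coding stretch of the haem-binding signature is shown for the 7 enzymes because it is the part through which they depend on iron. Each was read on the gene's strand from the Sscrofa11.1 genome, with the codon of the cysteine that grips the haem iron in capitals. In CYP2A19, CYP2C33, CYP2C49 and CYP2E1 an intron interrupts the stretch, so the coordinates there are its outer ends and the letters are the joined exons.
CYP1A1 (chr7:58807770-58807799, plus strand): ttcggcttgggcaagcggaagTGCatcggt
CYP1A2 (chr7:58780063-58780092, minus strand): ttcggcatgggcaagcgccggTGCataggg
CYP2A19 (chr6:49056985-49057478, minus strand): ttctccatcggaaagcggtacTGTttcgga
CYP2C33 (chr14:111269353-111270656, minus strand): ttctccattgggaaacgggccTGTgctgga
CYP2C49 (chr14:106608784-106611554, plus strand): ttctcaacaggaaaacgaattTGTgtggga
CYP2E1 (chr14:141701938-141702703, plus strand): ttttccgcaggaaagcgggtgTGTgtcgga
CYP3A29 (chr3:6774165-6774194, plus strand): tttgggactggaccccgcaacTGCattggc
The signature occurred 1 time in each of the 7 coding sequences. The 4 enzymes of family 2 spelled the cysteine TGT, and the enzymes of families 1 and 3 spelled it TGC.

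Expression was given as FPKM, a count of fragments scaled to transcript length and to the mapped fragments of the library, so that levels can be compared between genes. The paper lists the reads of each library, of which high-iron replicates 2 and 8 had the most. Read counts per gene were not used, so precision rests on how far libraries of the same diet differ. The sum of FPKM lay between 416922 and 456420 per library, and 16235 to 17817 genes were above 0. Hepatocyte markers (ALB, APOA1, TTR and others) summed to between 72650 and 96430 FPKM, so that the tissue matched its label. EIF1AY, a gene of chromosome Y, was listed at 0 in low-iron replicate 3, control replicate 5 and high-iron replicates 2 and 8 and was at 15.0 to 26.5 FPKM in the others. With EIF1AY as a covariate no member changed its direction or its call.

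All 10 genes were expressed in every library, and their mean levels spanned nearly 2 orders of magnitude. By the mean over the 9 libraries on the FPKM scale, CYP2E1 came first at 2253, followed by CYP2A19 at 1778 and CYP2C33 at 1483. These 3 enzymes ranked 22, 28 and 35 among all genes of the table. CYP2C49 followed at 607, CYP3A29 at 352 and CYP1A2 at 232. POR stood at 95.5, CYP1A1 at 36.2, NR1I3 at 33.9 and NR1I2 at 27.3. The ranges over libraries overlapped between each pair of neighbours in this order except CYP1A2 and POR. Even so, CYP2C33 was above CYP2C49 in 9 of 9 libraries, and CYP2E1 was above CYP2A19 in only 6 of 9. CYP1A1 was the most variable member, with a highest library 9.19 times its lowest, and POR the least variable at 1.76 times.

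**Figure D1:**
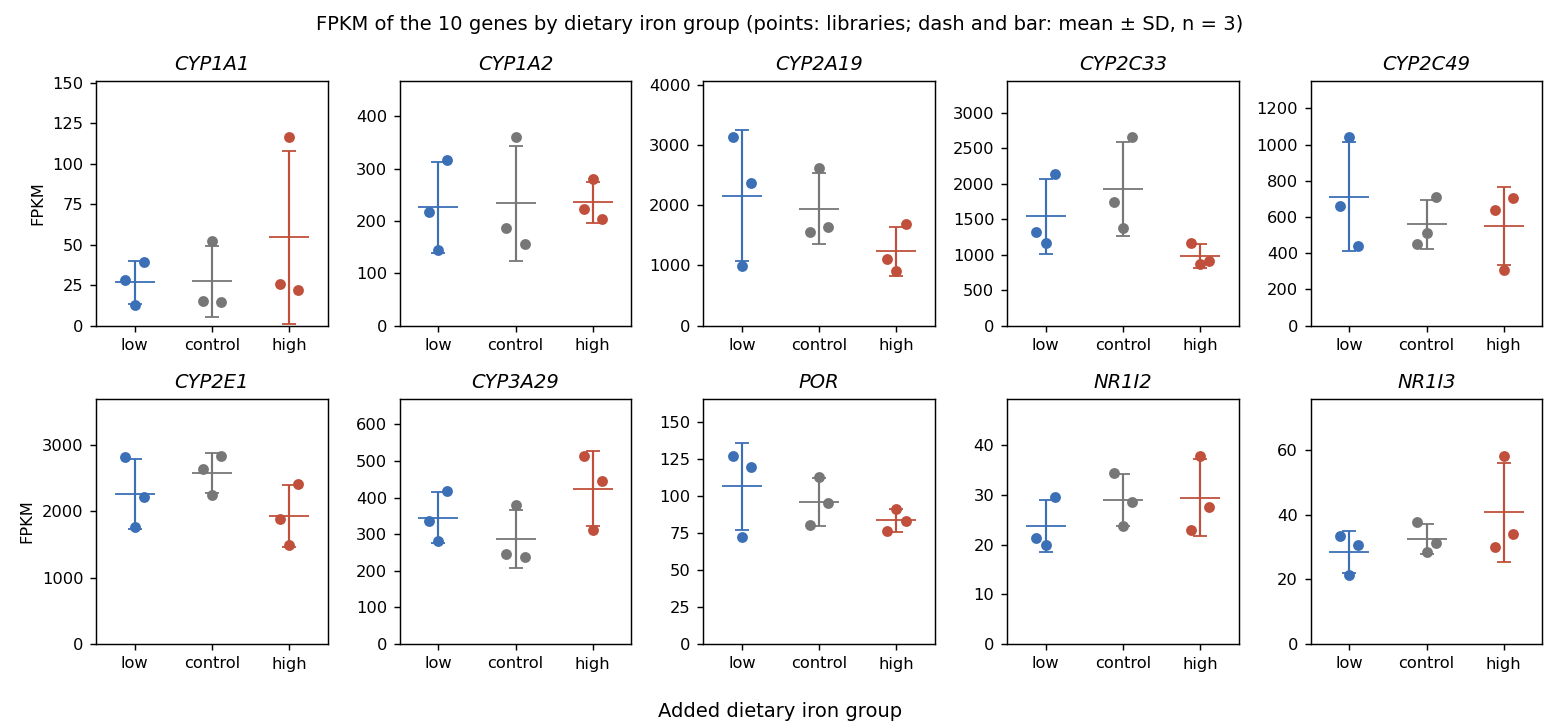
FPKM (vertical axes, linear from 0) of the 10 genes under low, control and high iron; points are libraries, the dash is the mean and the bar is ± 1 SD with n = 3. CYP2C33 is the gene whose high-iron points (868.5 to 1171 FPKM) all lie below its control points (1378 to 2653 FPKM), while CYP1A1 has a single high-iron library at 116 FPKM.

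In none of the 3 comparisons did a member pass the study's thresholds in limma, which ask for a 2-fold difference or more together with p under 0.05 before adjustment. The count was 0 of 10 for low-iron against control, where 0.882% of the 12584 tested genes passed, 0 of 10 for high-iron against control, where 1.57% passed, and 0 of 10 for high-iron against low-iron, where 1.54% passed. With so low a share called over all genes, 0 among 10 genes is what the background rate gives too. The 3 values of both groups were apart for 0, 1 and 0 members, against 8.34%, 10.9% and 13.2% of all tested genes. The median log2 fold change of the members was 0.007, -0.038 and -0.057 in the 3 comparisons, beside 0.076, 0.098 and 0.031 over all tested genes. At an adjusted p-value under 0.05 limma found 0, 1 and 0 genes in the whole table, and 463, 704 and 900 at an unadjusted p-value under 0.05, among which CYP2C33 was the only member and in the high-iron against control comparison only. In whole liver, fewer cells of a type and less RNA per cell cannot be told apart.

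**Figure D2:**
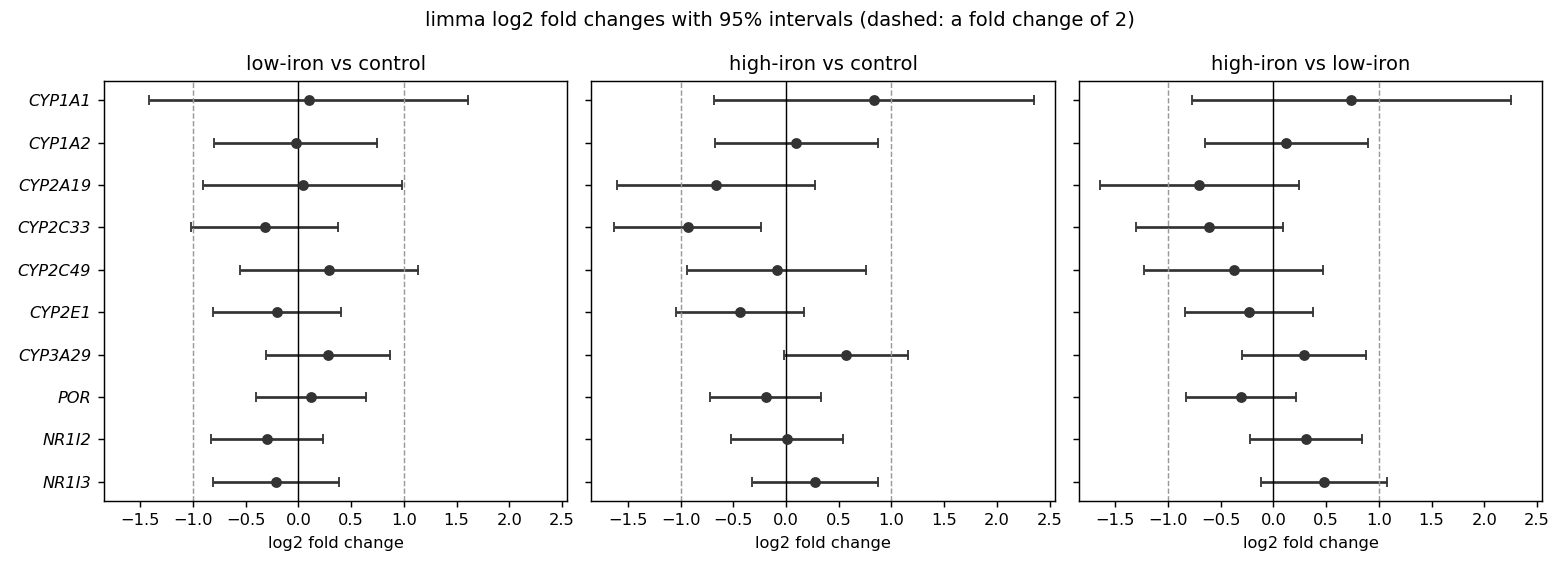
limma log2 fold changes (points) with 95% intervals (bars) of the 10 genes in each of the 3 comparisons; the solid line marks no difference and dashed lines mark a fold change of 2 either way. Only the interval of CYP2C33 in high-iron against control, -1.63 to -0.23, leaves out 0.

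CYP2C33, a family 2C enzyme on chromosome 14 (chr14:111268751-111301748, minus strand), gave the clearest separation. Its FPKM was 1317, 1164 and 2143 in the low-iron libraries, 1749, 1378 and 2653 in the control libraries, and 1171, 868.5 and 907.6 in the high-iron libraries. Every high-iron library was below every control library, and 1 low-iron library fell just under the highest high-iron library. The high-iron mean was 982.5 ± 165 FPKM and the control mean 1927 ± 656 FPKM (SD, n = 3 each). On the log2(FPKM + 0.1) scale the difference was -0.93 (SE 0.32, 95% interval -1.63 to -0.23), a fold of 0.525. The limma p-value was 0.0137 unadjusted and 0.885 after Benjamini-Hochberg adjustment over all tested genes. The exact permutation test over the 6 libraries gave p = 0.1, two-sided, the smallest it can give with 3 against 3. The fold passed 2, and CYP2C33 was called, without control replicate 5 (-1.15), without high-iron replicate 2 (-1.06) and with median-of-ratios scaling (-1.05). Without control replicate 6, the highest library, the difference was -0.67. Over all 3 groups the exact permutation p was 0.0679, where 0.00357 is the smallest possible, and it ran from 0.05 to 0.186 with each library left out. High-iron against low-iron gave -0.61 (SE 0.32) and low-iron against control -0.32 (SE 0.32), with intervals that include 0.

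CYP2C33 has a nearly identical gene beside it, and this bears on its value. LOC100739741, annotated as cytochrome P450 2C23-like (chr14:111234004-111262638, minus strand), matched 99.1% of 1482 aligned coding bases of CYP2C33. How reads that match both genes were shared between them is not given in the sources used here. LOC100739741 was at 443, 527 and 738 FPKM in the low-iron libraries, 918, 461 and 1526 in the control libraries, and 971, 506 and 666 in the high-iron libraries. Its groups overlapped in each comparison. The sum of both genes was 1759, 1691 and 2880 FPKM in low-iron, 2668, 1839 and 4180 in control, and 2143, 1375 and 1573 in high-iron libraries, so that high-iron replicate 2 was above control replicate 5. For the sum the difference between high-iron and control was -0.72 on the log2 scale (exact permutation p = 0.2, two-sided). CYP2C33 made up 54.7% to 63.2% of the sum in the high-iron libraries, 63.5% to 74.9% in the control and 68.8% to 74.8% in the low-iron libraries. Whether this share reflects the genes or the assignment of reads was not tested.

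**Figure D3:**
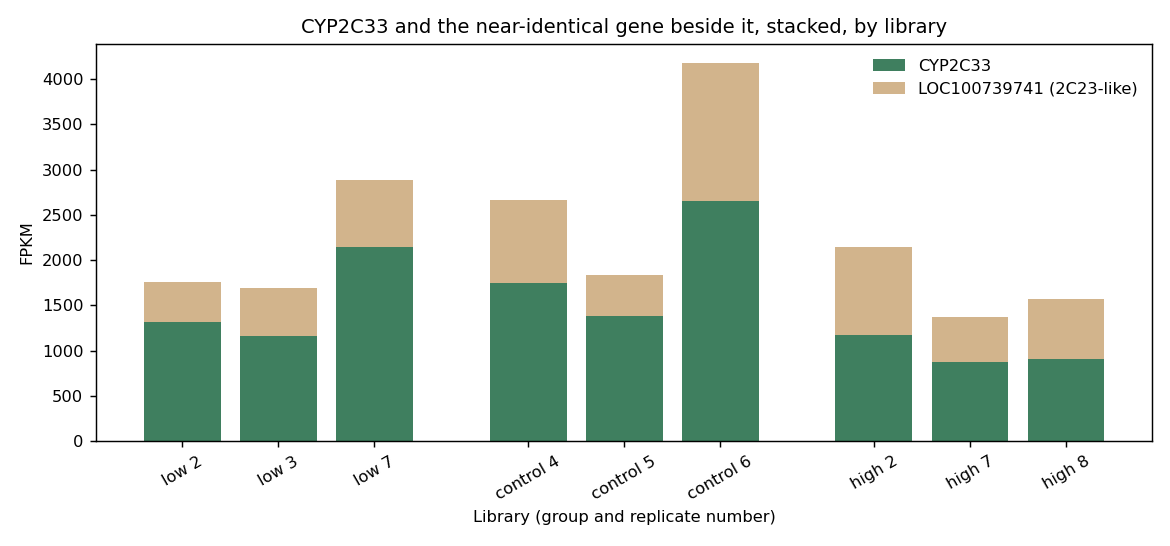
FPKM of CYP2C33 and of LOC100739741 stacked for each of the 9 libraries (horizontal axis, group and replicate number). The CYP2C33 part is below 1200 FPKM in each high-iron library, whereas the full bar of high-iron replicate 2 (2143 FPKM) exceeds that of control replicate 5 (1839 FPKM).

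CYP2C49, another family 2C enzyme of chromosome 14 (chr14:106571803-106612082, plus strand), had overlapping groups in each comparison. It stood at 661, 1039 and 439 FPKM in the low-iron libraries, 452, 512 and 711 in control, and 639, 305 and 705 in high-iron. The highest and the lowest library, low-iron replicate 3 and high-iron replicate 7, both lay outside the control range. The log2 difference from control was 0.29 (SE 0.38) for low-iron and -0.09 (SE 0.38) for high-iron. Its coding sequence matched CYP2C32 at 97.7%, CYP2C34 at 96.3% and CYP2C36 at 94.3%, so that its values carry the same uncertainty about shared reads. Summed with those 3 genes it gave log2 differences from control of 0.22 for low-iron (exact permutation p = 0.4) and -0.30 for high-iron (exact permutation p = 0.7).

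CYP2A19, the pig enzyme of the nicotine- and coumarin-oxidising 2A subfamily (chr6:49056579-49064111, minus strand), had its lowest group mean under high iron. The low-iron libraries were at 3126, 987 and 2363 FPKM, the control libraries at 1561, 2621 and 1640, and the high-iron libraries at 1108, 901 and 1691. Low-iron replicate 3 lay among the high-iron libraries, and the groups overlapped in each comparison. The high-iron mean of 1233 ± 409 FPKM compared with 1941 ± 591 in control and 2159 ± 1084 in low-iron (SD, n = 3 each). The log2 difference was -0.66 from control (95% interval -1.61 to 0.28) and -0.70 from low-iron (95% interval -1.65 to 0.24). Without low-iron replicate 3 the difference from low-iron was -1.19 and passed the thresholds, and without low-iron replicate 2 it was -0.36 and did not.

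CYP2E1, which oxidises ethanol and small solvents (chr14:141690737-141703078, plus strand), was the most abundant member and among the steadier ones. Its FPKM was 2814, 1764 and 2210 under low iron, 2633, 2244 and 2836 in control and 1880, 1486 and 2409 under high iron. High-iron replicate 8 was above control replicate 5, so these groups overlapped. The difference between high-iron and control was -0.44 on the log2 scale (SE 0.27, 95% interval -1.04 to 0.17).

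CYP3A29, of the 3A subfamily that handles a large share of drugs (chr3:6738502-6778121, plus strand), had overlapping groups in the comparison of high-iron and control. It stood at 335, 281 and 419 FPKM in low-iron, 246, 379 and 237 in control and 515, 313 and 446 in high-iron libraries. High-iron replicate 7 was below control replicate 5. The difference between high-iron and control was 0.57 (SE 0.27, 95% interval -0.02 to 1.16, limma adjusted p = 0.901). Its coding sequence was 93.6% identical to that of CYP3A46, and the sum of both genes differed by 0.07 between high-iron and control (exact permutation p = 0.5).

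CYP1A1 and CYP1A2, which oxidise polycyclic aromatic compounds and caffeine, lie side by side on chromosome 7 on opposite strands head to head (chr7:58802887-58809155, plus strand, and chr7:58779529-58786155, minus strand). CYP1A1 was at 28.3, 12.6 and 39.2 FPKM under low iron, 15.1, 52.4 and 14.5 in control, and 25.5, 116 and 22.1 under high iron. High-iron replicate 7 alone set its high-iron mean, and without that library the log2 difference from control fell from 0.84 (SE 0.69) to 0.07. CYP1A2 was at 217, 145 and 316 FPKM under low iron, 188, 360 and 155 in control, and 224, 280 and 204 under high iron. Its groups overlapped throughout, with log2 differences between -0.03 and 0.12 (SE 0.35).

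The 2 CYP1A genes varied together from library to library. Over the 9 libraries Pearson's r on the log2 scale was 0.828 (exact permutation p = 0.00474, adjusted p = 0.0379 over 8 relations) and Spearman's rho reached 0.933 (exact permutation p = 0.00075, adjusted p = 0.0060). Without high-iron replicate 7 and control replicate 5, the libraries farthest from the median of CYP1A1, r was 0.955, and after group means were removed it was 0.854. The coding sequences of the 2 CYP1A genes were 82.8% identical. Other pairs of members had r of similar size, as a description: CYP2A19 with POR 0.839, NR1I2 with NR1I3 0.816 and, in the opposite direction, CYP2C49 with NR1I2 -0.805. The groups of 3 are too small for a correlation within each diet.

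The 250 bases before each start are shown because the 2 genes move together. They were searched for TATAAA on the gene's strand and for GCGTG (the core of the response element of the aryl hydrocarbon receptor), AGTTCA and AGGTCA (elements of nuclear receptor sites) on both strands; matches are in capitals, and CACGC is GCGTG on the other strand.
CYP1A1 (chr7:58802637-58802886, plus strand): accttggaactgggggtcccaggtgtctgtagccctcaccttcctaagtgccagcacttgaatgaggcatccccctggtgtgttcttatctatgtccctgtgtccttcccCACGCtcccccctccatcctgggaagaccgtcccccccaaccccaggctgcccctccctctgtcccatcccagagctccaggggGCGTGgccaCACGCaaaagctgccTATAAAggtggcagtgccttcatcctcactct
CYP1A2 (chr7:58786156-58786405, minus strand): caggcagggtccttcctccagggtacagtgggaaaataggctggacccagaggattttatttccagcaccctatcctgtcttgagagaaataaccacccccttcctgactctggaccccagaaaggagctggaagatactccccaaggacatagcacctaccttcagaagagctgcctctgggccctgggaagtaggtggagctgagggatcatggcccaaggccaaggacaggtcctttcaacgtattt
CYP1A1 held 3 matches to GCGTG, beginning 140, 56 and 47 bases before the annotated start, and 1 TATAAA at 32 bases. CYP1A2 held none of the 4 motifs in this window. Of 20653 upstream regions of the same length, 31.2% held GCGTG, 6.59% TATAAA, 8.57% AGTTCA and 12.3% AGGTCA. Among the other members searched, TATAAA stood before CYP2E1 (29 bases) and CYP3A29 (48 bases), AGTTCA before CYP2E1, CYP3A29 and NR1I2, and AGGTCA before CYP2C33, CYP3A29 and NR1I3.

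**Figure D4:**
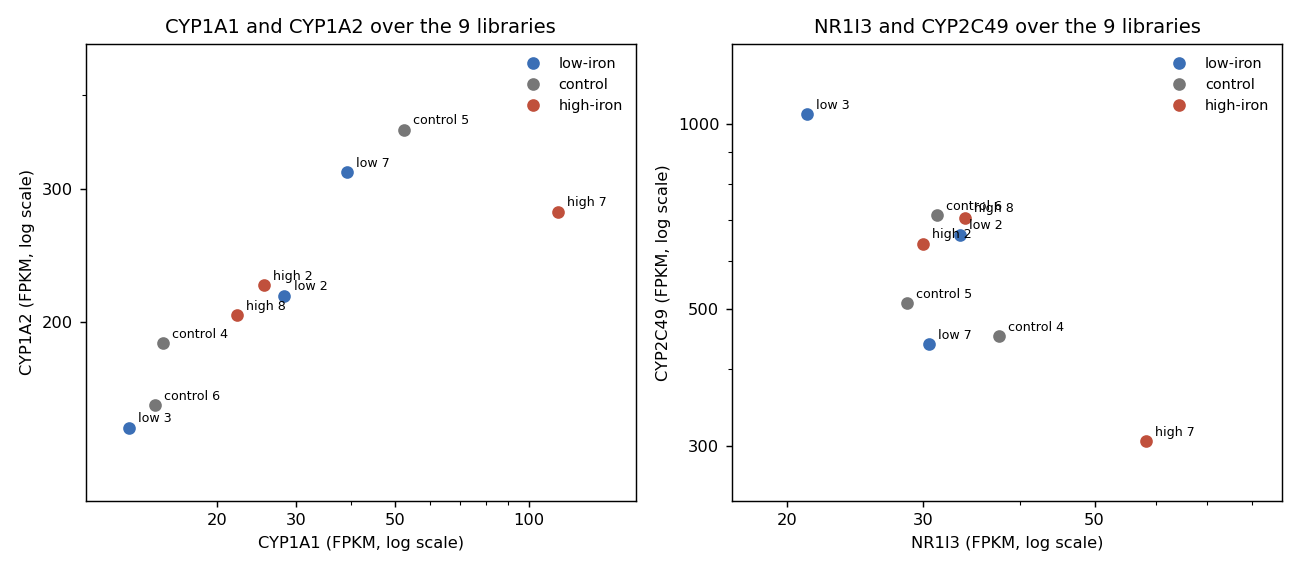
FPKM of CYP1A1 against CYP1A2 (left) and of NR1I3 against CYP2C49 (right), both axes logarithmic, with 1 point per library labelled by group and replicate. The left points rise together (r = 0.828), and the right slope (r = -0.824) is set by low-iron replicate 3 and high-iron replicate 7, without which r is -0.051.

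POR, the shared electron donor (chr3:10212734-10272184, minus strand), was at 128, 72.6 and 120 FPKM in low-iron, 80.6, 113 and 95.5 in control and 76.1, 91.6 and 83.1 in high-iron libraries. The high-iron libraries lay within the low-iron range. The difference farthest from 0, high-iron against low-iron, was -0.31 on the log2 scale (SE 0.24, 95% interval -0.83 to 0.21). On the FPKM scale its mean was well below that of each of the 3 most abundant enzymes. Among pairs of members its profile was closest to that of CYP2A19 (r = 0.839 over 9 libraries, as a description).

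The groups overlapped for both receptors in each comparison. NR1I2 (chr13:140373571-140406129, minus strand) was at 21.4, 19.9 and 29.7 FPKM in low-iron, 34.3, 23.8 and 28.6 in control and 22.9, 37.9 and 27.6 in high-iron libraries. Its log2 difference from control was -0.29 (SE 0.24) for low-iron and 0.01 (SE 0.24) for high-iron. NR1I3 (chr4:89226314-89231781, plus strand) was at 33.5, 21.2 and 30.5 FPKM in low-iron, 37.6, 28.6 and 31.3 in control and 30, 58.3 and 34.0 in high-iron libraries. High-iron replicate 7 was the highest library for both receptors and for CYP1A1, and the lowest for CYP2A19, CYP2C33, CYP2C49 and CYP2E1. Low-iron replicate 3 was the lowest for 5 members. The difference between high-iron and low-iron for NR1I3 was 0.48 (SE 0.27, 95% interval -0.12 to 1.08).

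Of the 6 relations tested between a receptor and an enzyme, 1 passed adjustment, and it rested on 2 libraries. NR1I2 with CYP3A29 gave r = -0.262 (exact permutation p = 0.487), NR1I3 with CYP3A29 r = -0.087 (exact permutation p = 0.847), NR1I2 with CYP2C33 r = 0.093 (exact permutation p = 0.809), NR1I3 with CYP2C33 r = -0.277 (exact permutation p = 0.482) and NR1I3 with CYP2A19 r = -0.182 (exact permutation p = 0.673), all with an adjusted p of 0.847 over 8 relations. NR1I3 with CYP2C49 gave r = -0.824 (exact permutation p = 0.0120, adjusted p = 0.0479) but rho = -0.45 (exact permutation p = 0.230), and r was -0.051 without high-iron replicate 7 and low-iron replicate 3, so the relation rests on those libraries. POR with CYP3A29 gave r = 0.092 (exact permutation p = 0.808).

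Added together, the 7 enzymes took between 0.986% and 1.92% of all FPKM in a library. Their sum was 8497, 5391 and 7930 FPKM under low iron, 6844, 7546 and 8247 in control, and 5562, 4270 and 6385 under high iron. Each high-iron library was below each control library, and low-iron replicate 3 lay within the high-iron range. The sum is a description and follows the 3 most abundant enzymes. Markers of other cells differed in the same libraries: the 8 Kupffer cell markers summed to 538 to 757 FPKM in control and 832 to 1060 in high-iron libraries, with 6 of 8 apart and higher, while hepatocyte markers summed to 76300 to 96430 and 72650 to 86380. Stellate cell markers summed to 112 to 195 FPKM in control and 197 to 290 in high-iron libraries, and 2 of 7 passed the thresholds as higher. Endothelial markers summed to 192 to 226 FPKM in control and 235 to 275 in high-iron libraries, with 5 of 7 apart and higher and 1 of 7 called. T cell markers summed to 11.9 to 23.4 FPKM in control and 21.01 to 42.3 in high-iron libraries, which overlap, and 2 of 7 were called as higher. The called ones were CD8A and a GZMA entry with a mean of 0.686 FPKM. A second GZMA entry, with a mean of 3.41 FPKM, was not called, and with a pseudocount of 1 no T cell marker was. Over all tested genes, 10.9% were apart between high-iron and control and 1.57% were called. In low-iron libraries the sums were 640.7 to 786.2 FPKM for Kupffer cell, 119.1 to 299.3 for stellate cell, 190.5 to 257.5 for endothelial and 15.19 to 20.89 for T cell markers. The stellate and endothelial ranges of the low-iron libraries thus overlap those of the high-iron libraries. The part of these cells in the enzyme values was not tested.

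**Figure D5:**
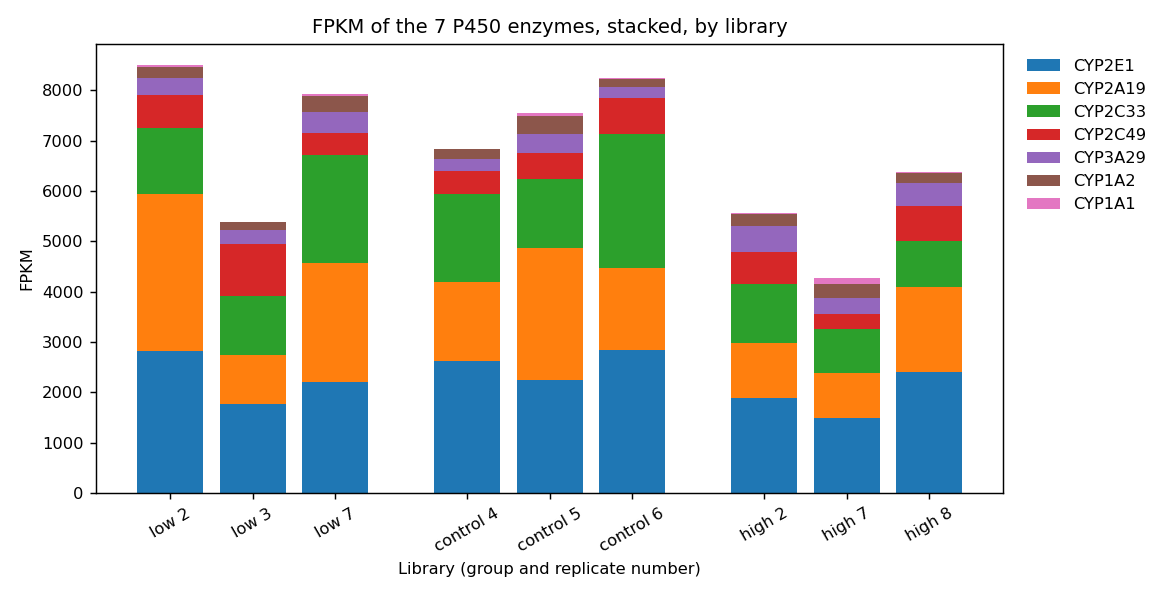
FPKM of the 7 P450 enzymes stacked for each of the 9 libraries (horizontal axis, group and replicate number; vertical axis from 0). The high-iron bars reach 4270 to 6385 FPKM and the control bars 6844 to 8247 FPKM, with low-iron replicate 3 at 5391 FPKM.

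The other P450 genes of families 1 to 3 listed by symbol gave 0 of 10 calls in each comparison, as did the 11 tested genes of 19 in other families, among which CYP27A1 and CYP4A21 were the most abundant. Between high-iron and control, 8 of the 10 had a negative difference, with a median of -0.59 beside 0.098 over all genes. CYP3A22, the most abundant of them and a 3A enzyme like CYP3A29, was at 3687, 1440 and 1926 FPKM in low-iron, 3027, 3892 and 2455 in control and 2108, 1283 and 1943 in high-iron libraries. Its high-iron libraries were all below its control libraries (-0.82, SE 0.37, limma adjusted p = 0.892). CYP3A22 was the 1 gene of the 10 that was apart in this comparison, where 10.9% of all tested genes were. The next by level, CYP2D25, a vitamin D 25-hydroxylase of the pig, lay between 600.6 and 1092 FPKM.

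CYP2B22, of the phenobarbital-inducible 2B subfamily, was the gene whose profile was most like that of CYP2A19 (r = 0.969 over 9 libraries, as a description). It lies on the same strand of chromosome 6 (chr6:49158175-49173872) and was at 68.1, 8.24 and 43.9 FPKM in low-iron, 18.4, 50.9 and 12.1 in control and 11.6, 4.32 and 19.9 in high-iron libraries. Low-iron replicate 2 was the highest and high-iron replicate 7 the lowest library for both genes. Their coding sequences were 68.7% identical.

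The profiles most like those of the other members were found by Pearson's r over the 9 libraries and are a description. CYP1A1 was closest to TCTN1 (0.951), CYP1A2 to ACSM3 (0.943), CYP2C33 to SLC46A3 (0.91), CYP2C49 to SRP72 (0.896) and CYP2E1 to RNASE4 (0.926). CYP3A29 was closest to EXD1 (0.923), POR to UBL3 (0.965), NR1I2 to PAIP2 (0.971) and NR1I3 to EREG (0.97).

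The genes that work beside the P450s were counted by list, against a background of 0.882%, 1.57% and 1.54% of all tested genes called in the 3 comparisons. None of the 6 electron transfer partners, which include CYB5A and PGRMC1, and none of the 14 tested receptors and factors, which include HNF4A and RXRA, was called in any comparison. The same held for the 18 tested phase I enzymes, led by ALDH1A1 and EPHX1, for the 11 drug transporters, led by SLCO1B3, and for the 11 genes of haem synthesis and breakdown, led by ALAD and HMOX1. The haem genes had median log2 differences of 0.119, -0.037 and -0.301 in the 3 comparisons, beside 0.076, 0.098 and 0.031 over all genes. Between high-iron and low-iron 10 were negative and 1 positive. There 2 were apart and lower, against 13.2% of all tested genes apart. Among 13 tested conjugating enzymes, led by GSTA1 and MGST1, NNMT, which methylates nicotinamide, was the one called, and it fell under high iron relative to low iron by 1.18 on the log2 scale (SE 0.45, limma adjusted p = 0.656). It was at 646, 1190 and 537 FPKM in low-iron and 378, 562 and 167 in high-iron libraries, which overlap. Of 5 tested targets of the aryl hydrocarbon receptor, which include CYP1A1 and CYP1A2, 0 were called. UGT1A6, the most abundant of them, lay between 243 and 358 FPKM. TIPARP, a repressor of that receptor, was at 2.68, 1.75 and 2.52 FPKM in control and 3.53, 4.06 and 3.83 in high-iron libraries, which do not overlap (0.71, SE 0.25, limma adjusted p = 0.885). Over all tested genes 10.9% were apart in this comparison. NQO1 went the other way (-0.88, SE 0.45, limma adjusted p = 0.903). Of the 5 targets, 3 had a positive and 2 a negative difference there, with a median of 0.096 beside 0.098 over all genes. CYP1B1, a further target, is present only as LOC100625479. It was missed by the match on symbols and is not among the 5. Its group means were 0.39 FPKM in low-iron, 0.35 in control and 0.99 in high-iron. It passed the filter only through the high-iron group and was not called in any comparison.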

How the data were processed

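Liver poly(A) RNA of 9 libraries, 3 per diet, was sequenced. Per the methods, Hisat2 aligned the filtered reads to Sscrofa11.1 and StringTie assembled them; the authors deposited 1 table of FPKM values with a column per library. The way reads matching several genes were divided is not given in the sources used here. No counts were used, so DESeq2, which the study applied, could not be run. Row numbers were taken as each gene's place in the NCBI annotation (release 106). All 20660 numbered rows then fall on protein-coding genes, against 15031 when shifted by 1.

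Values were tested as log2(FPKM + 0.1) for genes averaging 0.5 FPKM or more over all libraries, with limma 3.58.1 in R 4.3.3 (1 fit of 3 groups, contrasts, empirical Bayes with trend). Calls required a fold change of at least 2 and p under 0.05. Benjamini-Hochberg adjusted p-values cover all 12584 tested genes. Fold changes on this scale understate those of low genes. Exact permutation tests were run in Python 3.11.15 (pandas 2.3.3, scipy 1.17.1, numpy 2.4.6). The fit was tested on simulated data. Sequences were read with pysam 0.24.0, and coding sequences (the longest per gene) were aligned globally with biopython 1.88 in place of proteins. Members and lists were chosen with earlier results of these data known. Named genes are the members, called genes of each list (up to 5), the 2 most abundant per list and the closest profiles. CYP3A22's group order, UGT1A6's range, TIPARP, NQO1, the directions of the haem genes, the near-identical copies and the LOC-numbered genes were chosen after their values were seen. Alternatives were other pseudocounts and filters, TPM, median-of-ratios and quantile scaling, pairwise fits, array weights, EIF1AY as a covariate, a replicate block and leaving out each library. After group means were removed, libraries sharing a replicate number between groups were no more alike than other pairs. Some items are not reported here.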

Additional observations from a re-analysis of the deposited data

How the results depend on the processing

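Across the alternatives, 539 of the member fold changes kept their direction and call, 36 changed sign, and 5 became called. CYP2C33, between high-iron and control, was called with median-of-ratios scaling (-1.05, which made 1 member called), without control replicate 5 (-1.15) and without high-iron replicate 2 (-1.06). CYP2A19, between high-iron and low-iron, was called without low-iron replicate 3 (-1.19) and with the replicate block (-1.44, 1 member). Without low-iron replicate 2 it was -0.36. The block's difference rests on replicates 2 and 7 alone, because low-iron replicate 3 and high-iron replicate 8 have no partner. The block raised the genes called there from 194 to 458. After each gene's group means were removed, the same-number libraries of low-iron and high-iron were correlated at 0.018 and 0.021. These values of what was left lay within the range of the other pairs (-0.159 to 0.16), so no pairing by number was seen. Median-of-ratios and quantile scaling moved the median of all genes between high-iron and control by -0.11 each.

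The genes called between low-iron and control were 34 with a pseudocount of 1, 331 without the filter and 171 with array weights, against 111. Between high-iron and control they were 74 with a pseudocount of 1 and 504 without the filter, against 197. Between high-iron and low-iron they were 67 with a pseudocount of 1, 458 without the filter and 334 with array weights, against 194. Small differences changed sign. Between low-iron and control these were CYP2A19 (-0.040 with median-of-ratios, -0.10 with quantile scaling), CYP1A1 (-0.0064) and POR (-0.019) with quantile scaling, and CYP1A2 with array weights (0.17). Between high-iron and control these were CYP1A2 with median-of-ratios (-0.018), NR1I2 with median-of-ratios, quantile scaling and array weights (-0.10, -0.023 and -0.072), and CYP2C49 with array weights (0.084). CYP1A2 between high-iron and low-iron was -0.065 with the block. NR1I2 with CYP2C33 gave r = -0.021 after rescaling to TPM, and POR with CYP3A29 -0.003 with quantile scaling. The causes were not tested.

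Leaving out each library gave 109 to 211 genes called (low-iron against control), 190 to 298 (high-iron against control) and 188 to 332 (high-iron against low-iron), and 0 to 1 members called in the last 2. The counts over 1.5 times the full ones were 188, 211 and 169 without low-iron replicate 2, control replicate 5 and control replicate 6, 298 without control replicate 4, and 332 without low-iron replicate 3, in the same order of comparisons. Log2 differences between low-iron and control ranged from -0.25 to 0.70 (CYP1A1), -0.30 to 0.33 (CYP1A2), -0.30 to 0.53 (CYP2A19), -0.026 to 0.60 (CYP2C49) and -0.032 to 0.37 (POR). Between high-iron and control they ranged from -0.15 to 0.45 (CYP1A2), -0.31 to 0.29 (CYP2C49), -0.19 to 0.18 (NR1I2) and -0.017 to 0.46 (NR1I3). Between high-iron and low-iron they ranged from -0.022 to 1.17 (CYP1A1), -0.16 to 0.40 (CYP1A2) and -0.68 to 0.0017 (CYP2C49). Correlations ranged from -0.007 to 0.534 (NR1I2 with CYP2C33), -0.617 to 0.448 (NR1I3 with CYP2A19), -0.492 to 0.197 (NR1I3 with CYP2C33), -0.329 to 0.018 (NR1I3 with CYP3A29) and -0.043 to 0.410 (POR with CYP3A29). NR1I3 with CYP2C49 gave r = -0.717 when low-iron replicate 3 was left out and -0.649 when high-iron replicate 7 was, past the threshold in neither. CYP2C33's exact permutation p over 3 groups was 0.0464 with quantile scaling and 0.05 to 0.186 with each library left out. With 3 libraries a group and no counts, precision runs from a standard error of 0.24 (POR) to 0.69 (CYP1A1) on the log2 scale.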

Other observations

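P450 genes of families 1 to 3 that carry only a LOC number were listed after the symbols had been seen to miss them, and 9 of 17 passed the filter. Of these, 2 passed the thresholds as higher between high-iron and control and 3 between high-iron and low-iron. Over all tested genes, 1.57% and 1.54% were called in these comparisons, and 10.9% and 13.2% were apart. LOC100525112, annotated as cytochrome P450 2J2-like, was at 0.327, 19.7 and 3.58 FPKM in low-iron, 0.595, 3.44 and 11.8 in control and 23.9, 22.2 and 42.1 in high-iron libraries, so that the high-iron libraries were above all others (3.20 against control on the log2 scale, SE 1.25, limma adjusted p = 0.892). LOC100524940, annotated as cytochrome P450 2J2, was at 2.15, 4.70 and 3.63 FPKM in low-iron, 3.73, 3.23 and 3.78 in control and 7.41, 4.73 and 22.5 in high-iron libraries (1.35 against control, SE 0.48, limma adjusted p = 0.885). Enzymes of the 2J subfamily oxidise arachidonic acid. Coding identity among the 2J genes was not computed, so whether reads were shared between them was not tested. LOC106510546, annotated as cytochrome P450 2S1, was higher in high-iron than in low-iron (1.35, SE 0.55, limma adjusted p = 0.667) at a mean of 0.630 FPKM over the libraries. Its group means were 0.393 FPKM in low-iron, 0.479 in control and 1.02 in high-iron. It thus passed the filter of 0.5 FPKM only through the group where it is high, and its call carries no weight. Levels near 1 FPKM are imprecise.

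Among markers of the periportal zone, ARG1, the last enzyme of the urea cycle, was called lower under high iron (279, 454 and 298 FPKM against 785, 566 and 890 in control, limma adjusted p = 0.885). Of the 10 markers of that zone, 9 had a negative difference from control (median -0.374 beside 0.098 over all genes), and 3 were apart and lower. Over all tested genes, 10.9% were apart between these groups and 1.57% were called. Markers of the pericentral zone, where most of these P450s are made, had 0 of 8 calls between high-iron and control, and SLC1A2 alone was called, lower, between high-iron and low-iron. The summed level of the pericentral markers was 338 to 612 FPKM in control and 369 to 529 in high-iron libraries. Their median difference was 0.095 there. Between low-iron and control 7 of 8 were positive (median 0.521 beside 0.076 over all genes), and 2 were apart and higher, against 8.34% of all genes apart. Between high-iron and low-iron 6 of 8 were negative (median -0.561 beside 0.031), and 3 were apart and lower, against 13.2% of all genes apart. The causes were not tested.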
